A study of Mus musculus with 2 samples.

Results

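The genes described here are the erasers and readers of N6-methyladenosine (m6A), the most common internal modification of messenger RNA. They are 10 genes, taken by symbol from the 32285 genes listed in single-cell count matrices of mouse pancreatic tumours. Each symbol had 1 row in both matrices. The 2 erasers were Alkbh5 and Fto, and the 8 readers were Ythdc1, Ythdc2, Hnrnpa2b1, Ythdf1, Ythdf2, Ythdf3, Igf2bp2 and Igf2bp3.

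The m6A mark is placed on nascent RNA by a writer complex whose catalytic subunit is METTL3, it can be removed by the demethylases ALKBH5 and FTO, and it acts through proteins that bind the marked RNA. Readers with a YTH domain hold the methylated base directly: YTHDC1 works in the nucleus on splicing and export, YTHDF1 to YTHDF3 work in the cytoplasm on decay and translation, and YTHDC2 is an RNA helicase best known from the germ line. IGF2BP proteins stabilize their target RNAs, and HNRNPA2B1 is an abundant nuclear RNA-binding protein that takes part in splicing and microRNA processing. Several of these proteins have been studied in pancreatic cancer, where m6A has been linked to the stability of cell cycle transcripts.

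Both groups had 1 library of dissociated pancreatic tumour cells at 6 weeks of age. EL1 mice (EL1-Luc/EL1-Tag) are an FVB/N line in which the pancreatic elastase I promoter drives firefly luciferase and the SV40 large T antigen, so tumours start from acinar cells. WTg mice (EL1-Luc/EL1-Tag x CAG-Mettl3) carry both of these transgenes and, in addition, the Mettl3 open reading frame behind the broadly active CAG promoter, in a line made in C57BL/6 eggs. The effect of the Mettl3 transgene and that of the mixed strain background cannot be told apart in this design, and how many animals of which sex gave each library is not given in the sources used here. With 1 library per group no value had a biological replicate and no difference was tested. All intervals below are exact 95% intervals that cover counting error only.

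The measure was the unique molecular identifier (UMI), which counts each captured RNA molecule once at its 3′ end, so levels of different genes were compared without division by length. Levels are given as CPM, the UMIs of a gene for every 1000000 UMIs of the same cells. A barcode counted as a cell with 500 genes or more, 1000 UMIs or more and no more than 20% of UMIs from mitochondrial genes. This left 1113 of 1621 barcodes in EL1 with 37961287 UMIs and 905 of 1488 barcodes in WTg with 33007683 UMIs, at medians of 26543 and 34836 UMIs per cell. The libraries shared 15 barcodes before filtering and 0 among the kept cells. Mettl3, the gene overexpressed by the transgene, stood at 15.1 CPM in the EL1 library and at 66.7 CPM in the WTg library, as the labels call for. The transgene holds the Mettl3 open reading frame, and how fully counts at the 3′ end capture its RNA was not tested.

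Cells were sorted into groups by the summed UMIs of marker lists. Neuroendocrine-marker cells (483 in EL1 and 407 in WTg) carried secretory granule genes such as Chga. Acinar-marker cells (353 and 270) carried digestive enzyme genes and fell short of the neuroendocrine threshold. Their median neuroendocrine sum was 0.81 UMIs per 10000 in EL1 and 0.68 in WTg. Mitotic-marker cells (151 and 119) carried genes such as Top2a and Mki67. Macrophage-marker cells numbered 28 and 41. The labels call the samples epithelial cells, and the summed acinar list reached a median of 759 UMIs per 10000 even in the neuroendocrine-marker cells of EL1, against 15.6 in its macrophage-marker cells. The neuroendocrine-marker cells were not alike in the 2 libraries: their median neuroendocrine sum was 70.0 UMIs per 10000 in EL1 and 33.5 in WTg, and their median acinar sum was 759 and 1270. The part of these differences in the values below was not tested.

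Over all kept cells the members spanned a wide range of levels, with Hnrnpa2b1 far above the rest and the IGF2BP genes near the limit of detection. In EL1 the order was Hnrnpa2b1, Alkbh5, Ythdc1, Ythdf2, Ythdf3, Ythdf1, Fto, Ythdc2, Igf2bp3 and Igf2bp2. Hnrnpa2b1 stood at 557 CPM (549 to 564) and Alkbh5 at 147 CPM (143 to 151). Neighbours in this order were separated beyond counting error except Ythdf3 and Ythdf1. In WTg the order was the same but for 1 exchange, in that Ythdc1 at 128 CPM (124 to 132) stood above Alkbh5 at 86.3 CPM (83.2 to 89.6), and there Ythdf2 and Ythdf3 had overlapping intervals.

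**Figure D1:**
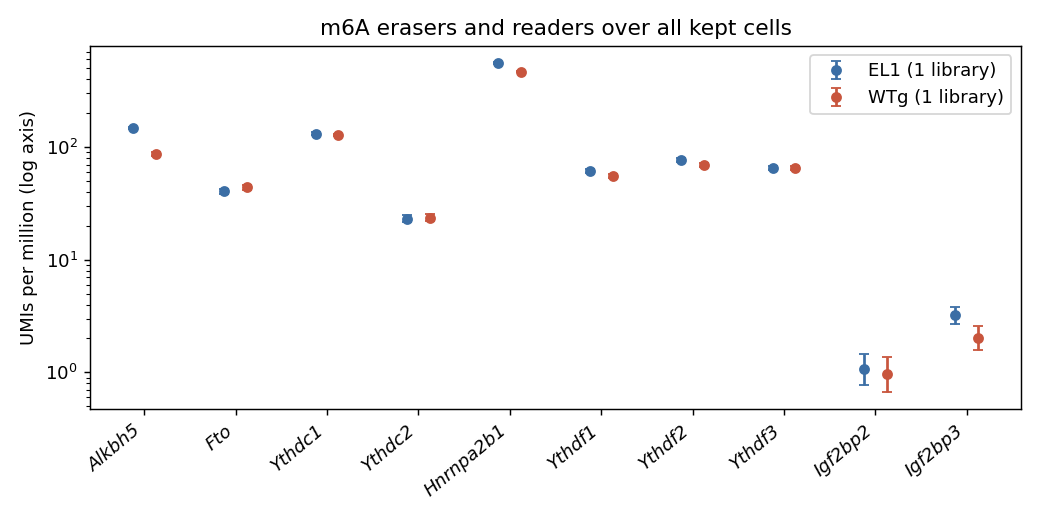
Level of each member over all kept cells in CPM (log axis) in the EL1 library (blue) and the WTg library (red); bars are exact 95% Poisson intervals. Alkbh5 is the member with the clearest gap, at 147 in EL1 and 86.3 in WTg, while Ythdc1, Ythdc2 and Ythdf3 lie close together.

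Of the 10 members, 2 differed by at least 0.5 on the log2 scale between the libraries, namely Alkbh5 and Igf2bp3, both lower in WTg. Only 8 members had the 200 UMIs over both libraries that were asked of a gene in counts over all genes, since Igf2bp2 had 73 and Igf2bp3 had 189. Of these 8, 1 was lower by at least 0.5 and 0 were higher. Over the 11052 genes with 200 UMIs, 17.6% were lower and 9.55% were higher by that much, so the members' share was near the background. The median log2 ratio of the 8 members was -0.10, against -0.16 over all 11052 genes.

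ALKBH5 is an iron-dependent nuclear demethylase that removes m6A from messenger RNA. Alkbh5 (ENSMUSG00000042650, chromosome 11, 60536381 to 60558512, plus strand, GRCm38) was counted by 5588 UMIs in EL1 and by 2850 in WTg. The ratio of WTg over EL1 on the log2 scale was -0.77 (-0.84 to -0.70), which put its level 1.70-fold (1.63 to 1.78) higher in EL1. Among all genes, 6.54% had a ratio as low or lower. Its UMIs were spread over 930 cells of EL1 and 675 of WTg, and the 10 cells with the most held 5.64% and 6.60% of them.

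Alkbh5 was lower in WTg in the neuroendocrine-, acinar- and mitotic-marker cells. Neuroendocrine-marker cells held 158 CPM of Alkbh5 in EL1 against 88.5 CPM in WTg (log2 ratio -0.84, interval -0.93 to -0.74). In acinar-marker cells it was 133 and 73.7 CPM, a log2 ratio of -0.86 (-0.99 to -0.72). Mitotic-marker cells showed a smaller gap, at 143 CPM and 101 CPM and a log2 ratio of -0.50 (-0.64 to -0.36). The mitotic-marker cells were split by whether they reached the neuroendocrine threshold, here called with and without neuroendocrine markers. Those with them had a log2 ratio of -0.75 (-0.92 to -0.59). Those without them had -0.25 (-0.51 to 0.01), an interval that holds 0. Beside these ratios, genes lower by at least 0.5 made up 23.2% of those measured in neuroendocrine-marker cells, 23.7% in acinar-marker cells and 13.8% in mitotic-marker cells, and genes as low as Alkbh5 made up 6.56%, 6.00% and 14.0%. Alkbh5 was the 1 member of 8 past that line in neuroendocrine-marker and in acinar-marker cells, and in mitotic-marker cells 0 members were past it. In all 3 groups 0 members were higher by at least 0.5, beside 6.17%, 7.13% and 9.31% of all genes. With each cell weighted equally, Fto passed that line in mitotic-marker cells, at 0.83.

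Macrophages, which are immune cells, were taken separately. Their Alkbh5 levels were 74.2 CPM in EL1, from 37 UMIs, and 76.8 CPM in WTg, from 75 UMIs. The log2 ratio was 0.05 (-0.54 to 0.66), an interval that does not reach the values of the neuroendocrine-marker and acinar-marker cells but holds that of the mitotic-marker cells. In all immune and stromal cells together, macrophages included, the ratio was -0.23 (-0.73 to 0.28) from 50 and 103 UMIs. Lymphocyte- and neutrophil-marker cells had -1.44 (-3.03 to 0.02) from 12 and 7 UMIs. Whether the cell groups differ in this ratio was not tested. In EL1 the macrophage level was thus below that of the tumour cells, with a log2 ratio of -0.99 (-1.50 to -0.52) to neuroendocrine- and acinar-marker cells together, and in WTg the corresponding ratio was -0.12 (-0.48 to 0.21). Mettl3 was 8.03 CPM in the EL1 macrophages from 4 UMIs and 17.4 CPM in those of WTg from 17 UMIs, well below the 70.5 CPM of WTg neuroendocrine- and acinar-marker cells.

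Cell by cell, the whole distribution of Alkbh5 lay lower in WTg tumour cells. Among neuroendocrine-marker cells with at least 10000 UMIs, its quartiles were 93.8, 148 and 212 CPM in 453 cells of EL1 and 45.5, 84.2 and 126 CPM in 372 cells of WTg. Cells without a UMI made up 4.19% and 9.41% of these. In acinar-marker cells the medians were 118 CPM in 306 cells and 70.1 CPM in 186 cells. The ranges of single cells overlapped throughout, from 0 to 696 CPM in EL1 and from 0 to 392 CPM in WTg neuroendocrine-marker cells.

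**Figure D2:**
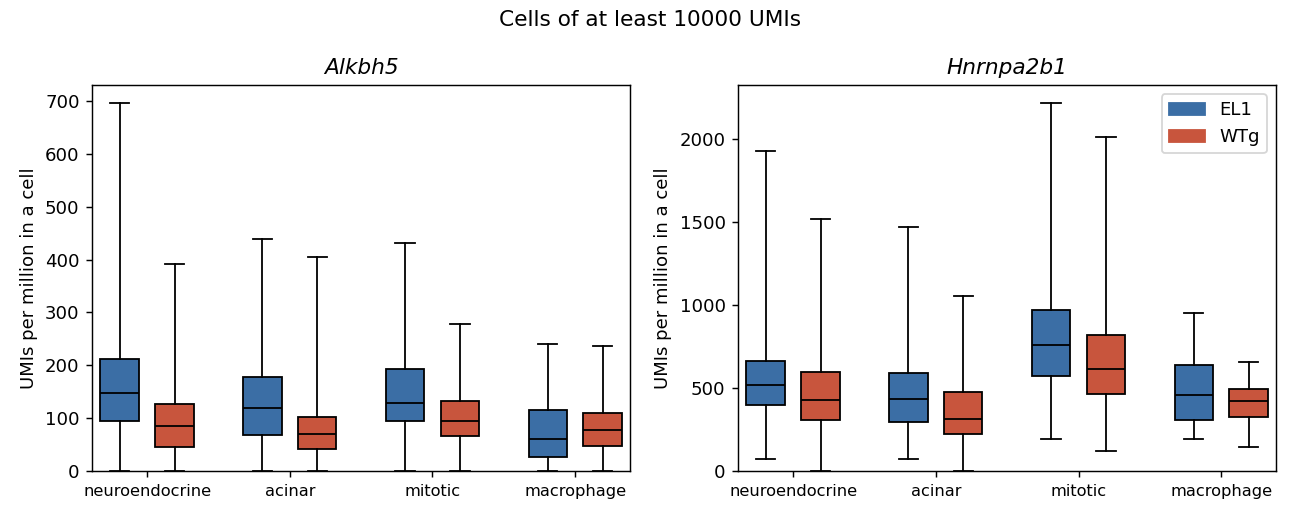
CPM in single cells of at least 10000 UMIs for Alkbh5 and Hnrnpa2b1 in EL1 (blue) and WTg (red); boxes show the quartiles with the median as a line, and whiskers run from the lowest to the highest cell. The Alkbh5 boxes lie lower in WTg for the 3 tumour groups and not for macrophages, and the Hnrnpa2b1 boxes are highest in mitotic-marker cells of both libraries.

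The gap in Alkbh5 was about as large among neuroendocrine-marker and acinar-marker cells of like depth. In cells of 10000 to 30000 UMIs the log2 ratio was -0.86 (-1.09 to -0.64) for neuroendocrine-marker cells and -0.84 (-1.19 to -0.49) for acinar-marker cells. In cells of 30000 to 100000 UMIs it was -0.80 (-0.91 to -0.69) and -0.82 (-0.99 to -0.66). After each cell had been thinned to 2000 UMIs, 23.0% (20.5 to 25.7) of 1051 EL1 cells and 16.3% (13.8 to 18.9) of 836 WTg cells had an Alkbh5 UMI. Without thinning the shares were 83.6% and 74.6%. Mitotic-marker cells were not split by depth. Thinned to 2000 UMIs, 21.3% (15.1 to 28.8) of 150 in EL1 and 22.7% (15.5 to 31.3) of 119 in WTg had an Alkbh5 UMI, which showed no gap. Thinned to 5000 UMIs the shares were 50.7% (42.3 to 59.0) of 146 and 42.5% (33.2 to 52.1) of 113, with overlapping intervals.

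FTO, the other eraser, is a demethylase of the same AlkB family that also acts on the m6Am mark next to the cap. Fto (ENSMUSG00000055932, chromosome 8, 91313525 to 91668439, plus strand) was represented by 1539 UMIs in EL1 and 1450 in WTg, which gave 40.5 CPM (38.5 to 42.6) and 43.9 CPM (41.7 to 46.2). Its log2 ratio was 0.12 (0.01 to 0.22), so the ratios of the erasers had opposite signs. Transcripts annotated on the opposite strand of Fto were rare, with 46 and 24 UMIs for 4831440D22Rik. By group, Fto was 50.8 and 47.0 CPM in neuroendocrine-marker cells, 30.7 and 37.2 CPM in acinar-marker cells, and 36.3 and 48.0 CPM in mitotic-marker cells. Between the libraries its log2 ratio was 0.40 (0.17 to 0.63) in mitotic-marker cells and 0.28 (0.05 to 0.50) in acinar-marker cells. In neuroendocrine-marker cells it was -0.11 (-0.26 to 0.03), and 0.13 with each cell weighted equally. Within the mitotic-marker cells it was 0.07 (-0.22 to 0.35) in those with neuroendocrine markers and 0.78 (0.35 to 1.21) in those without, and the former were 75 of 151 mitotic-marker cells in EL1 and 80 of 119 in WTg.

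Ratios of UMIs between genes of the same cells do not depend on how the libraries are scaled. In EL1 there were 3.63 (3.43 to 3.84) Alkbh5 UMIs for each Fto UMI, and in WTg there were 1.97 (1.84 to 2.10). This ratio was 3.11 and 1.88 in neuroendocrine-marker cells, 4.34 and 1.98 in acinar-marker cells, and 3.94 and 2.12 in mitotic-marker cells. In macrophages it was 2.85 (1.48 to 5.84) and 2.42 (1.57 to 3.80), which did not differ beyond counting error. For each Alkbh5 UMI there were 0.103 (0.0943 to 0.112) Mettl3 UMIs in EL1 and 0.772 (0.730 to 0.817) in WTg. In the acinar-marker cells of WTg the UMIs of the writer and the eraser were level, at 0.997 (0.889 to 1.12). The WTg values carry the limit given above on counting RNA of the transgene.

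Within each library the erasers were higher in neuroendocrine-marker than in acinar-marker cells. For Fto the log2 ratio was 0.72 (0.55 to 0.90) in EL1 and 0.34 (0.14 to 0.53) in WTg, and for Alkbh5 it was 0.25 (0.16 to 0.34) and 0.27 (0.13 to 0.40). The background was also shifted in this direction: the median over all genes lay at 0.25 in EL1 and 0.24 in WTg. Genes higher by at least 0.5 made up 21.8% in EL1 and 19.0% in WTg, and of the 8 members 1 (Fto) passed that line in EL1 and 0 in WTg. Alkbh5 was therefore near the typical gene, and Fto in EL1 was above it.

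Of the nuclear readers, YTHDC1 guides splicing and export of m6A-marked transcripts. Ythdc1 (ENSMUSG00000035851, chromosome 5, 86804221 to 86836659, plus strand) gave 5009 UMIs in EL1 and 4226 in WTg, levels of 132 CPM (128 to 136) and 128 CPM (124 to 132). The log2 ratio was -0.04 (-0.10 to 0.02). It was -0.19 (-0.28 to -0.10) in neuroendocrine-marker cells, -0.04 (-0.16 to 0.08) in acinar-marker cells and 0.22 (0.09 to 0.35) in mitotic-marker cells. Equal weight of cells gave 0.19 in acinar-marker cells. The median over all genes in these groups was -0.24, -0.21 and -0.08, so Ythdc1 ran somewhat above the typical gene in each.

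The most abundant member was Hnrnpa2b1 (ENSMUSG00000004980, chromosome 6, 51460932 to 51469894, minus strand). It gave 21135 UMIs in EL1 and 15468 in WTg, levels of 557 and 469 CPM, with a log2 ratio of -0.25 (-0.28 to -0.22). The ratio was -0.26 in neuroendocrine-marker cells, -0.31 in acinar-marker cells, -0.22 in mitotic-marker cells and -0.20 (-0.43 to 0.03) in macrophages. Equal weight of cells gave -0.11 both over all kept cells and in acinar-marker cells. At 2000 UMIs per cell, 64.6% (61.6 to 67.5) of EL1 cells and 57.8% (54.3 to 61.2) of WTg cells had a UMI of it. Beside these stand medians over all genes of -0.16 in all kept cells, -0.24 in neuroendocrine-marker cells, -0.21 in acinar-marker cells and -0.08 in mitotic-marker cells.

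YTHDC2, the helicase among the YTH proteins, had the lowest RNA level of the YTH readers. Ythdc2 (ENSMUSG00000034653, on chromosome 18) gave 878 UMIs in EL1 and 780 in WTg, levels of 23.1 CPM (21.6 to 24.7) and 23.6 CPM (22.0 to 25.3). The log2 ratio was 0.03 (-0.11 to 0.17). Over the 4 marker groups of both libraries its level ran from 12 CPM, in the macrophages of EL1 from 6 UMIs, to 28.3 CPM, in the mitotic-marker cells of WTg from 183 UMIs. MEIOC and RBM46, partners known from meiosis, were close to absent as RNA, with 1 Meioc UMI in EL1, 0 in WTg and 0 Rbm46 UMIs in both.

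The cytoplasmic readers YTHDF1, YTHDF2 and YTHDF3 are close paralogues, of which YTHDF2 is best known for bringing marked RNA to the CCR4-NOT deadenylase. Their genes lie on separate chromosomes, Ythdf1 on chromosome 2 (180904377 to 180920949, minus strand), Ythdf2 on chromosome 4 (132184912 to 132212303, minus strand) and Ythdf3 on chromosome 3 (16183212 to 16217037, plus strand). Their RNAs were within a narrow band in both libraries. The EL1 level of Ythdf1 was 61.8 CPM (59.3 to 64.4), and its WTg level was 55.6 CPM (53.1 to 58.2). In the same order Ythdf2 had 76.6 CPM (73.8 to 79.4) and 68.7 CPM (65.9 to 71.6). Ythdf3 had 65.8 CPM (63.2 to 68.4) and 65.3 CPM (62.6 to 68.1).

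The balance among the paralogues was much alike in the libraries. There were 1.24 (1.17 to 1.31) Ythdf2 UMIs for each Ythdf1 UMI in EL1 and 1.23 (1.16 to 1.31) in WTg. For each Ythdf3 UMI there were 1.16 (1.10 to 1.23) and 1.05 (0.991 to 1.12) Ythdf2 UMIs. The log2 ratios of WTg over EL1 were -0.15 (-0.24 to -0.06) for Ythdf1, -0.16 (-0.24 to -0.08) for Ythdf2 and -0.01 (-0.09 to 0.07) for Ythdf3, the first pair at the median of all genes.

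By cell group, the ratios of all 3 YTHDF genes lay below 0 beyond counting error in the neuroendocrine-marker cells. In those cells the log2 ratio was -0.25 (-0.37 to -0.12) for Ythdf1, -0.29 (-0.41 to -0.18) for Ythdf2 and -0.14 (-0.26 to -0.02) for Ythdf3, beside a median of -0.24 over all genes. In acinar-marker and mitotic-marker cells the intervals of all 3 genes held 0. With each cell weighted equally, Ythdf3 reached 0.40 in acinar-marker cells. Macrophages stood out for Ythdf2 alone, at 80.3 CPM in EL1 against 41.0 CPM in WTg with 40 UMIs each, and the log2 ratio of -0.97 (-1.64 to -0.30) rests on 28 and 41 cells.

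**Figure D3:**
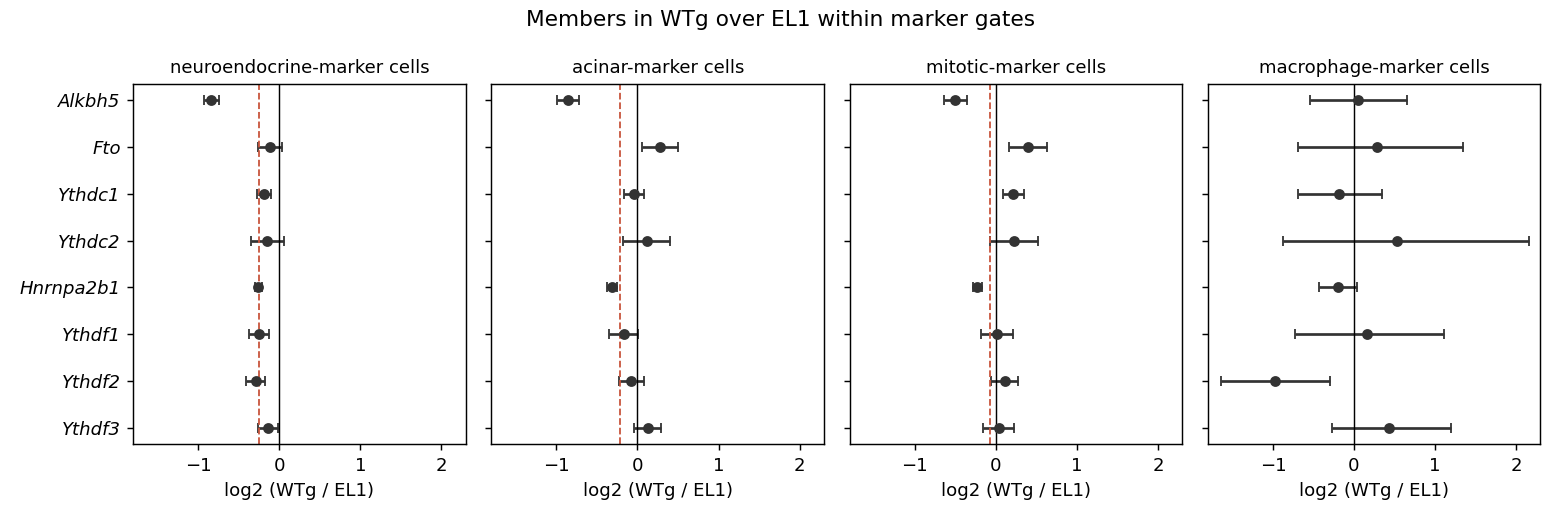
Log2 ratio of WTg over EL1 in each marker group for the 8 members with at least 200 UMIs; points are ratios of CPM, bars are exact 95% conditional binomial intervals, the black line marks 0 and the dashed line the median over all genes (not drawn for macrophages). Alkbh5 lies between -0.86 and -0.50 in the 3 tumour groups and at 0.05 in macrophages, while the other members lie between -0.31 and 0.40 in the tumour groups.

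Mitotic-marker cells were then compared with the neuroendocrine- and acinar-marker cells of the same library, since the study asked how m6A bears on the cell cycle. Of the 8 members with at least 200 UMIs, Hnrnpa2b1 had the highest ratio of mitotic-marker over other tumour cells in both libraries. Mitotic-marker cells of EL1 held 759 CPM of it and the other tumour cells 499 CPM, a log2 ratio of 0.61 (0.56 to 0.65). In WTg the levels were 649 and 420 CPM and the ratio was 0.63 (0.58 to 0.68). Genes higher by at least 0.5 in mitotic-marker cells made up 16.0% of those measured in EL1 and 22.4% in WTg. Hnrnpa2b1 was the 1 member of 8 past that line in both, a count not above these shares. Genes with a ratio at least as high as that of Hnrnpa2b1 made up 12.3% and 15.8%.

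Hnrnpa2b1 was also higher in mitotic-marker cells when these were split by neuroendocrine markers. Mitotic-marker cells that also carried neuroendocrine markers (75 in EL1 and 80 in WTg) had 756 and 683 CPM, against 537 and 449 CPM in neuroendocrine-marker cells. Mitotic-marker cells without these markers (76 and 39) had 762 and 560 CPM, against 450 and 362 CPM in acinar-marker cells. No acinar markers were asked of the former. Outside the mitotic gate, tumour cells with at least 10 UMIs per 10000 of an S phase list had more Hnrnpa2b1 than cells below it, with log2 ratios of 0.30 (0.25 to 0.34) in EL1 and 0.42 (0.36 to 0.48) in WTg. That line was chosen after the values had been seen. No background over all genes was computed for the splits in this paragraph.

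For the other 7 members with at least 200 UMIs, the mitotic contrast lay between -0.21 and 0.32. Alkbh5 had a log2 ratio of -0.04 (-0.13 to 0.05) in EL1 and 0.28 (0.15 to 0.41) in WTg. Ythdf2 had 0.00 (-0.13 to 0.13) and 0.31 (0.17 to 0.45), and Ythdc1 had -0.12 (-0.22 to -0.02) and 0.21 (0.11 to 0.32). The sparse Igf2bp2 and Igf2bp3 were wider apart: Igf2bp2 stood at -2.30 (-5.40 to -0.34) in EL1, from 2 and 34 UMIs, and at 1.02 (-0.18 to 2.13) in WTg, from 11 and 21, while Igf2bp3 stood at -0.47 (-1.27 to 0.25) and -0.26 (-1.35 to 0.70). The median over all genes was itself 0.08 in EL1 and 0.21 in WTg, so Alkbh5, Ythdf2 and Ythdc1 were near the typical gene in WTg and below it in EL1. Mitotic-marker cells with neuroendocrine markers were 75 of 151 in EL1 and 80 of 119 in WTg, and the part of this difference in the contrast was not tested.

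**Figure D4:**
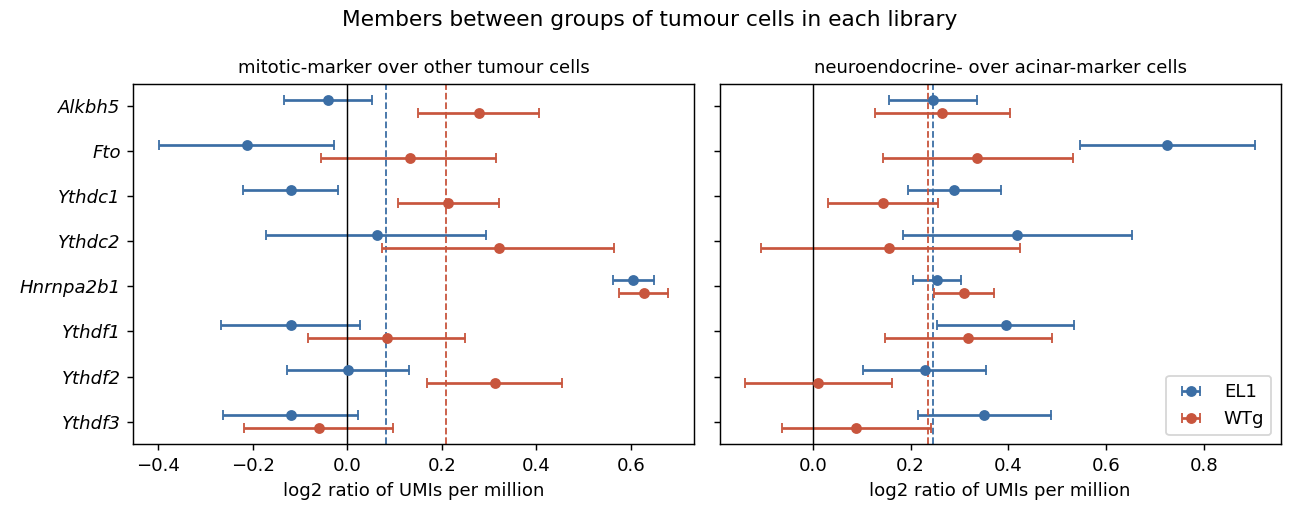
Log2 ratios of CPM within the EL1 library (blue) and the WTg library (red), for mitotic-marker cells over neuroendocrine- and acinar-marker cells (left) and for neuroendocrine- over acinar-marker cells (right); bars are exact 95% intervals and dashed lines the medians over all genes. Hnrnpa2b1 stands at 0.61 and 0.63 on the left, and Fto reaches 0.72 in EL1 on the right.

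The IGF2BP proteins are oncofetal RNA-binding proteins that stabilize m6A-marked messengers, and IGF2BP2 and the mitotic kinase PLK1 were central to the study's question. Igf2bp2 (ENSMUSG00000033581, chromosome 16, 22059009 to 22163299, minus strand) was found in 27 EL1 cells with 41 UMIs and in 21 WTg cells with 32 UMIs, or 1.08 CPM (0.775 to 1.47) and 0.969 CPM (0.663 to 1.37). The 10 cells with the most held 58.5% and 65.6% of these UMIs. Their log2 ratio was -0.16 (-0.87 to 0.55), so a difference of up to about that size in either direction was not detectable at this depth.

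Igf2bp2 was sparse in dividing cells too. Of the mitotic-marker cells, 2 of 151 in EL1 held 2 UMIs of it and 7 of 119 in WTg held 11, while Plk1 had 276 and 208 UMIs in the same cells. The ratio of these levels on the log2 scale was 2.81, with a counting interval of 0.61 to 6.02 that reflects the 2 UMIs in EL1. Macrophage-marker cells had 0 Igf2bp2 UMIs in both libraries. The upper ends of the counting intervals were 7.40 CPM for EL1 and 3.78 CPM for WTg, so a level like that of the tumour cells was not detectable in macrophages.

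Igf2bp3 (ENSMUSG00000029814, chromosome 6, 49085223 to 49214957, minus strand) gave 122 UMIs in EL1 and 67 in WTg, levels of 3.21 CPM (2.67 to 3.84) and 2.03 CPM (1.57 to 2.58). The interval of its log2 ratio of -0.66 ran from -1.12 to -0.22, but no more than 2 UMIs were found in any cell. Its macrophage level was 8.03 CPM (2.19 to 20.5) from 4 UMIs in EL1 and 3.07 CPM (0.63 to 8.98) from 3 UMIs in WTg. This was not below the 3.21 and 2.04 CPM of neuroendocrine- and acinar-marker cells. So few UMIs cannot tell expression from background, and its UMIs in tumour cells were not read as either. Its gene also overlaps Malsu1 on the opposite strand over 1529 bases, and Malsu1 had 1983 and 1206 UMIs. The third family member, Igf2bp1, had 0 UMIs in EL1 and 1 in WTg.

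In single tumour cells the members did not vary closely together. Over 759 neuroendocrine- and acinar-marker cells of EL1 with at least 10000 UMIs, the Pearson correlations of log-scaled levels among the 45 pairs of members ran from -0.06 to 0.26 with a median of 0.07, and over 558 such cells of WTg from -0.02 to 0.36 with a median of 0.09. Ythdc1 and Hnrnpa2b1 were the highest pair in both. Alkbh5 and Mettl3 had a correlation of 0.02 in EL1 and 0.13 in WTg. The cells of a library share depth and library, and correlations this weak in sparse counts are given as a description.

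Across the 8 groups formed by library and marker gate, the widest ranges of log2(CPM + 1) were those of Igf2bp3 (1.80), Igf2bp2 (1.43) and Ythdc2 (1.17), and all 3 were set by the small macrophage groups. Among 8792 genes with at least 200 UMIs in each library, the pattern of Ythdc2 was most like those of Tab3, Smad1 and Gm12940, with Pearson correlations of 0.990, 0.990 and 0.989. For Igf2bp3 the most like were Dnaja2, Mdm2 and Mfsd14a (0.987, 0.982 and 0.981), and for Igf2bp2 they were Phldb1, Hsph1 and Ankrd50 (0.959, 0.945 and 0.937). With 8 points and so many genes, such values say little beyond the order of the groups.

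The rest of the pathway was described by lists. Of 9 writer genes, all with at least 200 UMIs, 1 was higher by at least 0.5 (Mettl3, at 2.14) and 1 was lower (Mettl16, a methyltransferase outside the METTL3 complex, at -0.64), with a median of -0.20. Of 12 other reported m6A binders, 10 could be measured. Among these 1 was higher (Eif3b, a translation initiation factor subunit, at 0.82) and 0 were lower, with Hnrnpc lowest at -0.21 and a median of -0.08. Of 14 partners of the readers, 12 could be measured and 0 passed the line in either direction, from Cnot3 of the CCR4-NOT complex at -0.49 to the helicase gene Upf1 at 0.14, with a median of -0.19.

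The other AlkB family genes lay lower as a group than the members did. Of 7 genes, all with at least 200 UMIs, 2 were lower by at least 0.5 and 0 were higher, and the median log2 ratio was -0.39. The lowest was Alkbh4 at -0.98 (-1.32 to -0.64), with 238 UMIs in EL1 and 105 in WTg, and the highest was Alkbh1, a demethylase gene of tRNA and DNA, at 0.06 (-0.04 to 0.17). Alkbh5 at -0.77 thus lay within the range of its family in these libraries. The same background of 17.6% lower genes applies.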

How the data were processed

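Single cells of pancreatic tumours were measured in 1 EL1 and 1 WTg library with the 10x Chromium 3′ v3.1 kit. The authors made UMI counts per gene and barcode with Cell Ranger (6.0.2 per the matrix header), and the submitters' processing notes name GRCm38, R 4.1 and Seurat 4.0.5. Whether intronic reads were counted is not given in the sources used here. The deposited counts were used as they stand. A second deposited table of counts per library holds part of the same barcodes and served as an alternative.

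Counts were summed over cells and divided by all UMIs of those cells. Intervals at 95% were exact: Poisson for levels, conditional binomial for ratios, Clopper-Pearson for shares. Marker gates used summed marker UMIs per 10000 and a number of marker genes: mitotic 10 and 5, neuroendocrine 8 and 3, acinar 500 and 3, macrophage 30 and 3, neutrophil 30 and 3, lymphocyte, endothelial and fibroblast lists 10 and 3, erythroid 100 and 3. Immune and stromal gates came first, then mitotic, neuroendocrine and acinar. These thresholds were set after the marker sums had been seen and without the members. Between 0.5 and 2 times the threshold lay 118 EL1 and 153 WTg cells for the neuroendocrine gate, 453 and 215 for the acinar gate and 104 and 97 for the mitotic gate. A group with under 20 cells in a library gave no ratio. Each of the 4 groups compared had more markers of its own list than of any other among its 10 leading genes by fold. The gates were built from these lists, so this count is not an independent check of the groups. Scrublet (scanpy 1.11.5, expected rate 2%) called 4 doublets in each library, which were kept and removed in an alternative. That is under 0.5% of cells in each, so doublets may remain.

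The code for the ratio and its interval was run on simulated counts for the comparison over all kept cells. Of 200 changed genes among 11052, 200 were recovered, and 95.4% of intervals held the true value. The counts were drawn from the Poisson model that the intervals assume, so this checks the code only. Spread between cells, gates and small groups were not simulated. Alternatives were all deposited barcodes, a stricter filter (1000 genes, 3000 UMIs, 10% mitochondrial), the second table's barcodes, doublets removed, TMM scaling, equal weight of cells, CPM without mitochondrial and acinar enzyme UMIs, gate thresholds multiplied by 0.5 or 2, and thinning to 1000 or 5000 UMIs or none. TMM factors came from edgeR 4.0.16 in R 4.3.3. Coordinates are from GENCODE M21. The text names the 10 members, Mettl3, Plk1, the highest and lowest gene of each pathway list, and the 3 genes most like each of the 3 members of widest range. Meioc, Rbm46, Igf2bp1, Malsu1 and 4831440D22Rik were named after their values had been seen, because of their tie to a member. The members and lists were chosen with earlier results of these data known. A count of 0 was read as up to 3 counts.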

Additional observations from a re-analysis of the deposited data

Results flagged for a closer look

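Ythdc1, the nuclear YTH reader, went in opposite directions in the libraries when mitotic-marker cells were compared with neuroendocrine- and acinar-marker cells. The log2 ratio was -0.12 (-0.22 to -0.02) in EL1 and 0.21 (0.11 to 0.32) in WTg. The sign in EL1 depended on the gate, since doubled gate thresholds turned the ratio to 0.046. The median over all genes was 0.08 in EL1 and 0.21 in WTg, so Ythdc1 was at the typical gene in WTg and below it in EL1. The difference between the libraries was not tested, each group being 1 library. Within mitotic-marker cells that carry neuroendocrine markers the ratios were -0.09 (-0.23 to 0.04) and 0.21 (0.08 to 0.33), and in those without them, against acinar-marker cells, -0.10 (-0.26 to 0.05) and 0.21 (-0.01 to 0.41).

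Alkbh5 did the same for mitotic-marker cells without neuroendocrine markers over acinar-marker cells, at -0.25 (-0.40 to -0.11) in EL1 and 0.35 (0.10 to 0.60) in WTg, which was not tested either. These rest on 76 and 39 mitotic-marker cells, and no background over all genes was computed for this contrast. With neuroendocrine markers the direction was shared, at 0.15 (0.03 to 0.28) and 0.24 (0.09 to 0.38).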

How the results depend on the processing

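No paired analysis was possible because only 1 library stood on each side. Alkbh5 kept a lower level in WTg under every alternative tried over all kept cells, with log2 ratios from -0.79 to -0.66. The count of 2 members past 0.5 became 1 with all deposited barcodes, 1 with cells weighted equally and 0 past a log2 ratio of 1, and it was 2 under the other 5 alternatives. The median log2 ratio of the 10 members was -0.15 and ranged from -0.17 to -0.04. TMM scaling moved every ratio by 0.11 and the median of all genes from -0.16 to -0.05. It turned the sign of Ythdc1 to 0.07 and of Ythdf3 to 0.10, both near 0 before. Of genes past 0.5, 35.1% were higher in WTg with CPM, 51.8% with TMM scaling and 40% without mitochondrial and acinar enzyme UMIs. In the mitotic contrast, doubled gate thresholds turned Ythdc1 in EL1 to 0.046, and equal weight of cells turned Ythdc2 in WTg to -0.035. The cause was not tested. In the mitotic contrast Hnrnpa2b1 ranged from 0.56 to 0.74 in EL1 and from 0.57 to 0.65 in WTg. Alternatives limited to cells of 10000 to 30000 and of 30000 to 100000 UMIs were chosen after seeing the data. Shares of thinned cells moved with the depth chosen, as their construction makes them. Within mitotic-marker cells the WTg over EL1 ratio of Fto was 0.40, ranged from 0.26 to 0.42 under 5 alternatives and became 0.83 with cells weighted equally. That weighting shifted 13 of the ratios within marker groups and left 26 much the same. Fto in neuroendocrine-marker cells went from -0.11 to 0.13, and Ythdc1 in acinar-marker cells from -0.04 to 0.19. Hnrnpa2b1 went from -0.31 to -0.11 in acinar-marker cells and from -0.25 to -0.11 over all kept cells. Igf2bp2 and Igf2bp3, with 73 and 189 UMIs in all, and the macrophage groups of 28 and 41 cells are limited by depth.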

Other observations

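Cells in no gate gave a further Alkbh5 value. In EL1 they numbered 60, and their leading genes were Slc16a3, Sprr1a, Areg, Ccng2, Hilpda, Slc4a4, Bnip3, Eno1, Anxa2 and Plin2. Several of these, such as Slc16a3 for a lactate transporter, Hilpda for a lipid droplet protein and Bnip3 for a mitophagy receptor, are known to be induced by low oxygen. Slc16a3 UMIs were found in 14 of the 60 cells, Hilpda UMIs in 15 and Bnip3 UMIs in 26, so these genes describe part of the cells only. Alkbh5 stood at 252 CPM (216 to 292) over the 60 cells from 175 UMIs, above the 158 CPM of the neuroendocrine-marker cells of EL1. Of these UMIs, 164 lay in the 24 cells over 10000 UMIs, and 30 of the 60 cells held an Alkbh5 UMI. With each cell weighted equally, the mean was 158 CPM in both groups. Of the 60 cells, 24 had at least 10000 UMIs, and in these Alkbh5 had 269 CPM (229 to 313), Ythdc1 174 CPM (142 to 210), Ythdf2 113 CPM (87.9 to 143), Fto 27.8 CPM (16.2 to 44.6) and Ythdc2 9.82 CPM (3.61 to 21.4). In the neuroendocrine-marker cells of EL1, Ythdc1 stood at 145 CPM, Ythdf2 at 81.2 CPM, Fto at 50.8 CPM and Ythdc2 at 26.0 CPM. The leading genes were named after their values had been seen. The 29 such cells of WTg held 50400 UMIs in all with 2 of Alkbh5 and 0 of Hilpda, Slc16a3 and Bnip3, so no comparison between the libraries was made.

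Barcodes left out for over 20% mitochondrial UMIs (393 in EL1 and 440 in WTg) had the erasers in the reverse order of the kept cells. In EL1 these barcodes held 105 CPM (86.1 to 126) of Fto and 57.9 CPM (44.4 to 74.2) of Alkbh5. In WTg they held 82.0 CPM (68.8 to 96.9) and 38.3 CPM (29.5 to 48.9). The log2 ratio of WTg to EL1 was -0.60 (-1.12 to -0.07) for Alkbh5 from 62 and 64 UMIs. Other members had ratios below 0 in these barcodes too, at -0.45 (-0.60 to -0.29) for Hnrnpa2b1, -0.47 (-1.21 to 0.28) for Ythdf1, -0.35 (-0.72 to 0.02) for Fto and -0.27 (-0.58 to 0.04) for Ythdc1, and no background over all genes was computed for them.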
